A study of Mus musculus with 9 samples.

Results

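Interferon-stimulated genes were followed in whole mouse corneas of 3 genotypes: 38 genes were listed by name, and 37 of them had a row of their own among the 22180 genes that the array table could be reduced to. A gene's row had to carry exactly 1 gene symbol, and where a gene had several such rows the brightest over all 9 arrays was taken. Dtx3l stood only on a row shared with another symbol and was not analysed here. The wild-type (WT) group carried neither alteration. Mutant mice had the corn1 allele of Dstn, which encodes destrin, a protein that takes actin filaments apart. Mice of the rescued group were Dstn corn1 mutants whose corneal epithelium had also lost Srf, the gene for serum response factor, a transcription factor of actin and muscle genes. Not given in the sources used here is what drove the deletion of Srf. All mice, WT included, received doxycycline by intraperitoneal injection between postnatal days 28 and 58, and corneas were taken at day 58. The strain background of every group was a mixture of FVB, Swiss Black, 129, C57BL6/J and A.BY. Each group had 3 arrays, each on RNA pooled from 10 corneas of 5 mice, so values describe pools and not single animals. The values are log2 intensities, and a difference of 1 means a doubling of intensity.

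Interferons are secreted proteins that warn tissue of infection. Type I and type III interferons bind surface receptors whose kinases switch on STAT2, which works with IRF9 at a DNA element called the interferon-stimulated response element (ISRE). Interferon gamma acts mainly at another element, the gamma-activated site (GAS). The induced genes include sensors of foreign RNA and DNA, enzymes and GTPases that block viruses, the ubiquitin-like protein ISG15 and parts of the antigen-presenting machinery, and many are transcribed at a low level without infection. In the cornea they are known for the defence of the surface against herpesviruses.

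The members did not all move alike. In the mutant corneas 11 of 37 members were lower than in WT and 1, Samd9l, was higher, at an adjusted p under 0.05 in limma with Benjamini-Hochberg adjustment over all genes; 16.5% of all genes were called lower and 15.1% higher in the same comparison. In the rescued corneas 16 members were higher than in mutant and 0 lower, against 6.46% and 6.88% of all genes. Set against WT, 11 members were higher in rescued corneas and 0 lower, against 6.28% and 7.43% of all genes. At an unadjusted p under 0.05, 13, 29 and 22 members passed in these comparisons in the same order, or 35.1%, 78.4% and 59.5%, against 40.1%, 27.0% and 26.8% of all genes. The median log2 difference over the members was −0.07 for mutant minus WT, 0.70 for rescued minus mutant and 0.53 for rescued minus WT, and over all genes it was −0.02, 0 and −0.01. The comparisons share arrays with one another and are not independent. The rescued group had the highest of the 3 group means for 35 of 37 members, or 94.6%, against 21.4% of all genes. These means hide a difference among the rescued pools: pool 3 was the lowest of the 3 for 32 members, as described further on.

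**Figure D1:**
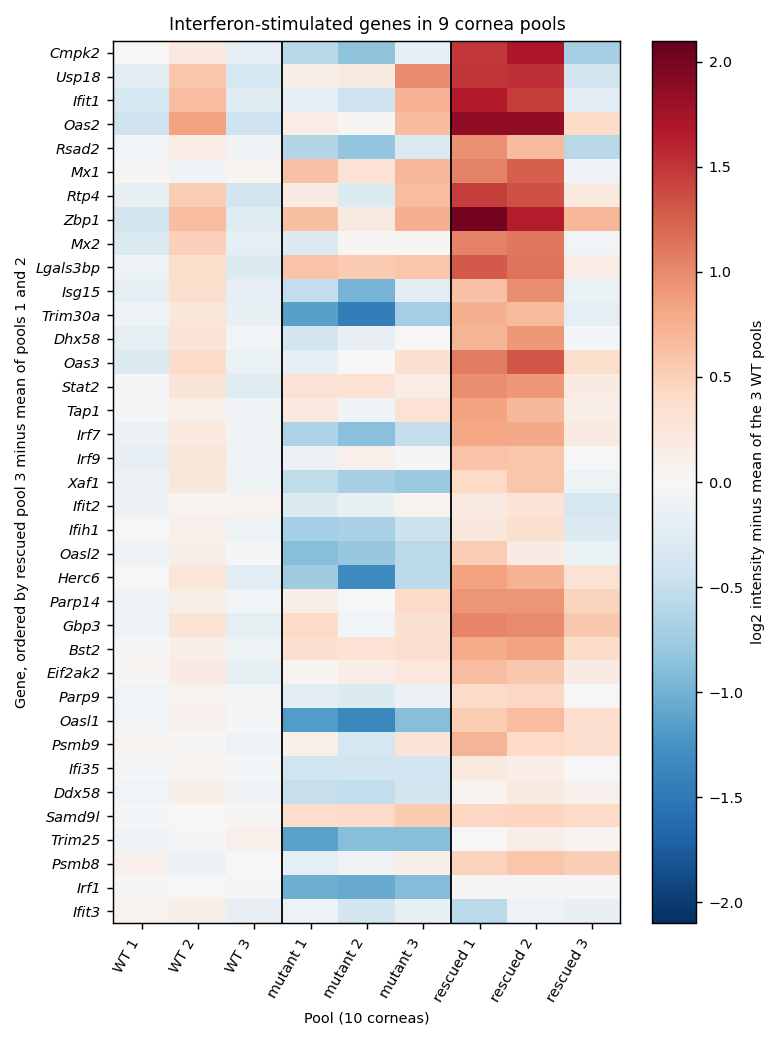
Log2 intensity of 37 interferon-stimulated genes (rows) in each of the 9 pools (columns), as the difference from the mean of the WT pools; rows are ordered by how far rescued pool 3 lay from the mean of rescued pools 1 and 2. Rescued pools 1 and 2 are high in most rows (median 0.75 and 0.68 above the WT mean), rescued pool 3 is not (median 0.06), and Oasl1, Trim30a, Irf1 and Trim25 are low in all mutant pools.

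The labels were checked first. Dstn lay between 12.55 and 12.59 in the WT pools, between 5.54 and 5.80 in the mutant pools and between 5.61 and 5.63 in the rescued pools, low in both groups that carry corn1. Srf was at 9.23, 8.98 and 9.17 in WT pools 1 to 3, at 10.77, 10.72 and 10.55 in the mutant pools and at 9.14, 9.45 and 8.45 in the rescued pools. Rescued pool 3 thus had the lowest Srf of all 9 pools. In limma, Srf was 3.18-fold lower in rescued than in mutant (−1.67 on the log2 scale, adjusted p = 0.000841). Rescued minus WT was −0.12 (adjusted p = 0.787), and the pools overlapped. In these whole corneas Srf thus fell from the raised mutant level, and a group level below WT was not seen. Markers of the labelled tissue were bright, with Krt12, the keratin of the corneal epithelium, between 13.49 and 13.96 and Kera, the stromal proteoglycan keratocan, between 12.14 and 12.90. Because whole corneas were used, fewer cells of a type and less RNA per cell cannot be told apart.

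Promoters are shown because the list was drawn up by response to interferon and the DNA elements of that response can be read in them. RefSeq promoter windows of mouse build GRCm38.p6, from 250 bases before to 50 after each start, were found by symbol for 28 of the 37 members. Some members had more than 1 window, so the 28 members had 33 windows. The ISRE core, searched on both strands as GAAA, any 2 bases and GAAA again, was present for 12 of these 28. It was in 13 of the 33 member windows, while 3.44% of all 32851 windows held it. The GAS, searched on both strands as TTC, any 3 bases and GAA, was present for 6 members. It was in 6 of the 33 member windows, against 8.30% of all windows. The CArG box, the element that serum response factor binds, was found for 0 of 28 members and in 1.63% of all windows. In 1 window an ISRE core and a GAS match overlapped. A match is only a run of letters in a window, and no match says nothing of sites outside it. Of the 11 members that were lower in the mutant, 3 held an ISRE core, and of the other 17 with a window, 9 did. The 160 bases before the start are printed for 6 members that differ in how they varied, with ISRE cores in capitals, or for Irf1 the GAS:
Irf1: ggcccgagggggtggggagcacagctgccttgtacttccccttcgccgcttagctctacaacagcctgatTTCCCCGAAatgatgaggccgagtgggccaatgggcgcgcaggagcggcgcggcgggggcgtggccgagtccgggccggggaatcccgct
Isg15: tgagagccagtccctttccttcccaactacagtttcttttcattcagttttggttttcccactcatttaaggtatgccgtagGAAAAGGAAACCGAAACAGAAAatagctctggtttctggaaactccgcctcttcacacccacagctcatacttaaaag
Ifit1: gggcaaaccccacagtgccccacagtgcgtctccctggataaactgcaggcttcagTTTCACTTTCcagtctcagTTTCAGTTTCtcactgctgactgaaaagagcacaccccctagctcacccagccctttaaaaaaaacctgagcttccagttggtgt
Ifit3: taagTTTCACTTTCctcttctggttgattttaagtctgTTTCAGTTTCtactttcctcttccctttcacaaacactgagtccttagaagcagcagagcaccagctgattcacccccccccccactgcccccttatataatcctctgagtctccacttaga
Oas3: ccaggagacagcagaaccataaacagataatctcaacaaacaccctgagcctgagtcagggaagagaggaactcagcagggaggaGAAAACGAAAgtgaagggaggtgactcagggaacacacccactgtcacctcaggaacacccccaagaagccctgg
Gbp3: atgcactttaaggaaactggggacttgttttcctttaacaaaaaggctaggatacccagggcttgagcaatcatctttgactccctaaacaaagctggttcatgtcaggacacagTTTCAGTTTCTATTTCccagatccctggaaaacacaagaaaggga
They lie, in that order, at chr11:53769854-53770013 (plus strand), chr4:156200819-156200978 (minus strand), chr19:34640729-34640888 (plus strand), chr19:34583369-34583528 (plus strand), chr5:120777660-120777819 (minus strand) and chr3:142559884-142560043 (plus strand). The Irf1 stretch holds a GAS that begins 90 bases before the start and no ISRE core. Isg15 holds 3 ISRE cores in a run, each overlapping the next, and Ifit1 and Ifit3 hold 2 separate ones each. The values of these genes by pool follow with their roles.

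Transcription factors of the response come first. Irf1, a factor induced by interferon gamma that switches on antiviral and antigen-presentation genes, was at 10.73, 10.72 and 10.68 in WT pools 1 to 3, 9.68, 9.65 and 9.80 in mutant pools 1 to 3 and 10.74, 10.67 and 10.74 in rescued pools 1 to 3. The mutant pools all lay below every other pool, and WT and rescued pools overlapped. Irf1 was 2.01-fold lower (−1.0 on the log2 scale, SE 0.06, adjusted p = 2.96e-06) in mutant than in WT and 2.01-fold higher (1.01 on the log2 scale, SE 0.06, adjusted p = 1.86e-05) in rescued than in mutant, while rescued minus WT was 0.01 with a 95% interval from −0.13 to 0.14. Irf7, the factor that amplifies type I interferon production, was at 9.27, 9.60 and 9.32 in WT pools 1 to 3, 8.76, 8.52 and 8.90 in mutant pools 1 to 3 and 10.21, 10.19 and 9.59 in rescued pools 1 to 3. It was lowest in the mutant pools, and rescued pools 1 and 2 stood above all WT pools while pool 3 lay just under the highest of them. The mutant level was 1.60-fold lower (−0.67 on the log2 scale, SE 0.17, adjusted p = 0.0143) than WT, the rescued level was 2.42-fold higher (1.27 on the log2 scale, SE 0.17, adjusted p = 0.00132) than mutant, and rescued was 1.52-fold higher (0.60 on the log2 scale, SE 0.17, adjusted p = 0.0490) than WT. Stat2, which works with IRF9 in the factor that binds the ISRE, was at 8.99, 9.29 and 8.77 in WT pools 1 to 3, 9.32, 9.32 and 9.18 in mutant pools 1 to 3 and 9.99, 9.93 and 9.20 in rescued pools 1 to 3. It was 1.61-fold higher (0.69 on the log2 scale, SE 0.20, adjusted p = 0.0486) in rescued than in WT and passed neither other test, and rescued pool 3 lay inside the WT range. Irf9, the DNA-binding part of that factor, passed no test; it ranged from 9.17 to 9.60 in WT, 9.23 to 9.45 in mutant and 9.34 to 9.95 in rescued pools.

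Sensors of foreign nucleic acid form the next set of 5. Ifih1, which encodes the long double-stranded RNA sensor MDA5, was at 10.01, 10.10 and 9.89 in WT pools 1 to 3, 9.29, 9.32 and 9.55 in mutant pools 1 to 3 and 10.24, 10.33 and 9.71 in rescued pools 1 to 3. Every mutant pool lay below every WT and rescued pool. Ifih1 was 1.52-fold lower (−0.61 on the log2 scale, SE 0.15, adjusted p = 0.0124) in mutant than in WT and 1.63-fold higher (0.70 on the log2 scale, SE 0.15, adjusted p = 0.0143) in rescued than in mutant. Ddx58, the gene for the RNA sensor RIG-I, was at 10.63, 10.80 and 10.60 in WT pools 1 to 3, 10.20, 10.17 and 10.29 in mutant pools 1 to 3 and 10.76, 10.87 and 10.77 in rescued pools 1 to 3. All mutant pools were again the lowest, and rescued pool 3 stood with the other rescued pools. Ddx58 was 1.38-fold lower (−0.46 on the log2 scale, SE 0.07, adjusted p = 0.000986) in mutant than in WT and 1.50-fold higher (0.58 on the log2 scale, SE 0.07, adjusted p = 0.000854) in rescued than in mutant. Zbp1, a sensor of Z-form nucleic acid that can start necroptosis, was at 7.60, 8.62 and 7.73 in WT pools 1 to 3, 8.61, 8.17 and 8.73 in mutant pools 1 to 3 and 9.99, 9.63 and 8.68 in rescued pools 1 to 3. Rescued pools 1 to 3 were all above the highest WT pool, pool 3 by the least, and Zbp1 was 2.73-fold higher (1.45 on the log2 scale, SE 0.35, adjusted p = 0.0234) in rescued than in WT. Eif2ak2, the double-stranded RNA-dependent kinase PKR, was 1.38-fold higher (0.46 on the log2 scale, SE 0.13, adjusted p = 0.0484) in rescued than in WT, with pools from 8.44 to 8.82 in WT and 8.82 to 9.29 in rescued. Dhx58, the gene for LGP2, which tunes the other RNA sensors, passed no test and was at 8.44, 8.92 and 8.60 in WT pools 1 to 3, 8.26, 8.48 and 8.66 in mutant pools 1 to 3 and 9.36, 9.56 and 8.63 in rescued pools 1 to 3.

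OAS proteins make a second messenger that activates RNase L, and the OAS-like proteins Oasl1 and Oasl2 are their relatives. Oasl1 was at 10.32, 10.47 and 10.35 in WT pools 1 to 3, 9.21, 9.03 and 9.48 in mutant pools 1 to 3 and 10.92, 11.02 and 10.73 in rescued pools 1 to 3. The groups did not overlap, with mutant lowest and rescued highest. Oasl1 was 2.21-fold lower (−1.14 on the log2 scale, SE 0.12, adjusted p = 5.97e-05) in mutant than in WT, 3.14-fold higher (1.65 on the log2 scale, SE 0.12, adjusted p = 3.95e-05) in rescued than in mutant and 1.42-fold higher (0.51 on the log2 scale, SE 0.12, adjusted p = 0.0193) in rescued than in WT. Its chromosomal neighbour Oasl2 was at 11.25, 11.49 and 11.34 in WT pools 1 to 3, 10.46, 10.56 and 10.79 in mutant pools 1 to 3 and 11.89, 11.54 and 11.22 in rescued pools 1 to 3. Mutant pools lay below all others, and Oasl2 was 1.69-fold lower (−0.76 on the log2 scale, SE 0.16, adjusted p = 0.00431) in mutant than in WT and 1.93-fold higher (0.95 on the log2 scale, SE 0.16, adjusted p = 0.00368) in rescued than in mutant. Oas3, which makes long messenger chains, was at 8.30, 8.98 and 8.44 in WT pools 1 to 3, 8.40, 8.58 and 8.91 in mutant pools 1 to 3 and 9.65, 9.88 and 8.95 in rescued pools 1 to 3. Rescued pools 1 and 2 were the highest of all pools, and pool 3 lay within the WT range. Oas3 was 1.89-fold higher (0.92 on the log2 scale, SE 0.25, adjusted p = 0.0396) in rescued than in WT. Oas2, next to Oas3 on the chromosome, passed no test although its rescued mean was the highest, since rescued pools 1 and 2 were at 10.69 and 10.70 and pool 3 at 9.22, inside the WT range of 8.40 to 9.68.

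IFIT proteins bind viral RNA that lacks the host's cap marks, and 0 of the 3 genes passed a test. Ifit1 was at 8.86, 9.87 and 8.98 in WT pools 1 to 3, 9.05, 8.79 and 9.96 in mutant pools 1 to 3 and 10.89, 10.68 and 9.01 in rescued pools 1 to 3. Rescued pools 1 and 2 were the highest of the 9, and pool 3 stood with WT pools 1 and 3. The rescued minus mutant difference of Ifit1 was 0.93 with a 95% interval from −0.19 to 2.04. Ifit3 was at 7.72, 7.77 and 7.47 in WT pools 1 to 3, 7.55, 7.25 and 7.49 in mutant pools 1 to 3 and 7.08, 7.54 and 7.49 in rescued pools 1 to 3, with rescued pool 1 the lowest of all 9 pools. Ifit2 ranged from 7.15 to 7.35 in WT, 7.0 to 7.36 in mutant and 6.92 to 7.57 in rescued pools. Ifit3 has a near-identical neighbour, and the probe sequences were not used here, so its signal may hold that of a second gene.

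**Figure D2:**
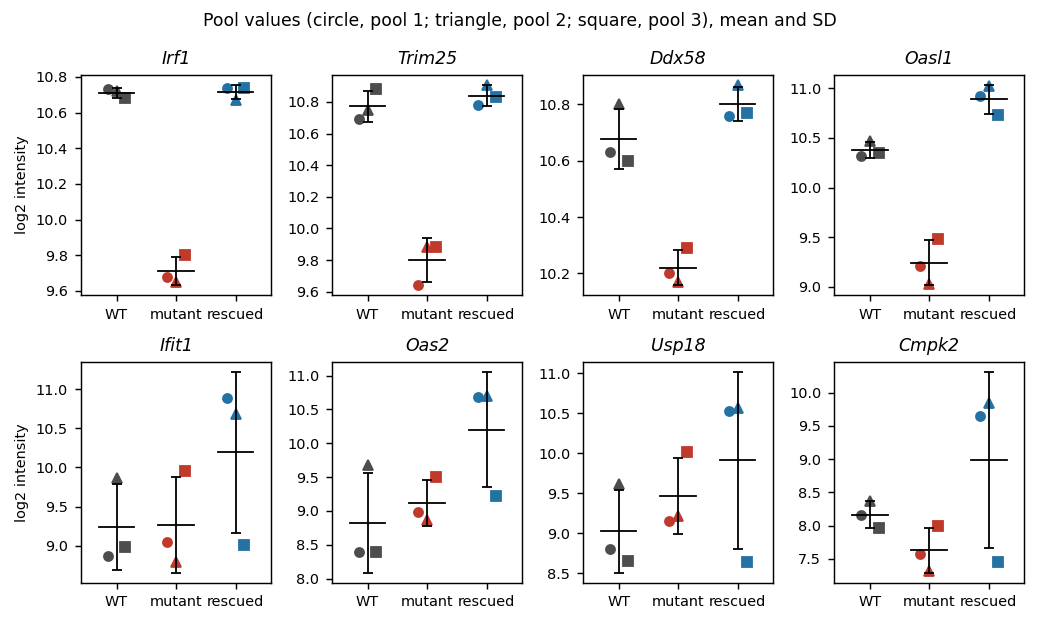
Log2 intensity of 8 members in each pool of each group; symbols give the pool number, and bars give the mean and SD of 3 pools. The upper row shows members that were low in all mutant pools (Irf1, Trim25, Ddx58, Oasl1), and the lower row members with a rescued pool 3 well below rescued pools 1 and 2 (Ifit1 9.01, Oas2 9.22, Usp18 8.64, Cmpk2 7.46).

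Other antiviral effectors varied in different ways. Gbp3, a GTPase that attacks the vacuoles of intracellular pathogens, was at 6.15, 6.52 and 6.03 in WT pools 1 to 3, 6.65, 6.19 and 6.56 in mutant pools 1 to 3 and 7.27, 7.23 and 6.81 in rescued pools 1 to 3. All rescued pools were above all others, and Gbp3 was at least 1.56-fold higher (0.64 on the log2 scale, SE 0.17, adjusted p = 0.0370) in rescued than in mutant and at least 1.82-fold higher (0.87 on the log2 scale, SE 0.17, adjusted p = 0.00957) in rescued than in WT, both as lower bounds because the dimmer group lay under 6.77, the median of all rows; guanylate-binding genes resemble one another closely. Bst2, the gene for tetherin, which holds budding viruses at the cell surface, was at 6.81, 6.97 and 6.74 in WT pools 1 to 3, 7.17, 7.15 and 7.19 in mutant pools 1 to 3 and 7.62, 7.68 and 7.22 in rescued pools 1 to 3. The groups did not overlap, and Bst2 was 1.59-fold higher (0.67 on the log2 scale, SE 0.12, adjusted p = 0.00541) in rescued than in WT. Xaf1, which promotes cell death, was at 9.30, 9.67 and 9.33 in WT pools 1 to 3, 8.89, 8.73 and 8.65 in mutant pools 1 to 3 and 9.85, 10.02 and 9.32 in rescued pools 1 to 3. Mutant pools were the lowest, and Xaf1 was 1.60-fold lower (−0.67 on the log2 scale, SE 0.17, adjusted p = 0.0128) in mutant than in WT and 1.96-fold higher (0.97 on the log2 scale, SE 0.17, adjusted p = 0.00507) in rescued than in mutant. Ifi35 was at 10.52, 10.62 and 10.53 in WT pools 1 to 3, 10.14, 10.18 and 10.16 in mutant pools 1 to 3 and 10.77, 10.70 and 10.55 in rescued pools 1 to 3. It was 1.31-fold lower (−0.39 on the log2 scale, SE 0.07, adjusted p = 0.00182) in mutant than in WT and 1.43-fold higher (0.52 on the log2 scale, SE 0.07, adjusted p = 0.00130) in rescued than in mutant, with a second, dimmer row showing −0.16 and 0.24 for the same differences. Samd9l, a restriction factor of poxviruses, was from 8.42 to 8.46 in WT, 8.81 to 8.99 in mutant and 8.85 to 8.89 in rescued pools. It was 1.35-fold higher (0.44 on the log2 scale, SE 0.06, adjusted p = 0.000549) in mutant than in WT and 1.35-fold higher (0.43 on the log2 scale, SE 0.06, adjusted p = 0.00221) in rescued than in WT.

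Cmpk2, a mitochondrial nucleotide kinase gene beside Rsad2, had the widest spread over the rescued pools. It was at 8.16, 8.37 and 7.96 in WT pools 1 to 3, 7.58, 7.32 and 7.99 in mutant pools 1 to 3 and 9.65, 9.85 and 7.46 in rescued pools 1 to 3. Rescued pools 1 and 2 were the highest of the 9 and pool 3 was below every WT pool, and no comparison passed. Rsad2, the gene for the antiviral enzyme viperin, was also lowest in rescued pool 3, at 8.21, 7.91 and 6.66 in rescued pools 1 to 3, against 7.17 to 7.40 in WT. Rtp4, Lgals3bp, Mx1 and Mx2 also passed no test, and their rescued pool 3 lay 1.19, 1.05, 1.22 and 1.12 below the mean of pools 1 and 2. Mx1 and Mx2 encode dynamin-like GTPases against RNA viruses and were dim, from 5.37 to 6.70 and from 5.46 to 6.87 over all pools. Both are listed as pseudogenes in the RefSeq table of the C57BL/6J genome, one of the parent strains of this mixed background.

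Of 7 genes of the ISG15 and ubiquitin pathways and the PARP family, 6 were higher in rescued than in mutant. In mutant against WT 3 were lower. The shares of all genes were 6.46% and 16.5%. Isg15, the ubiquitin-like modifier itself, was at 6.42, 6.99 and 6.44 in WT pools 1 to 3, 6.10, 5.65 and 6.39 in mutant pools 1 to 3 and 7.24, 7.59 and 6.48 in rescued pools 1 to 3. Mutant pools were the lowest, and Isg15 was at least 2.08-fold higher (1.05 on the log2 scale, SE 0.29, adjusted p = 0.0391) in rescued than in mutant. Herc6, the ligase that attaches ISG15 in mice, was at 9.51, 9.77 and 9.29 in WT pools 1 to 3, 8.78, 8.20 and 8.97 in mutant pools 1 to 3 and 10.36, 10.25 and 9.82 in rescued pools 1 to 3. Each rescued pool lay above every WT pool and each mutant pool below, and Herc6 was 1.83-fold lower (−0.87 on the log2 scale, SE 0.21, adjusted p = 0.0105) in mutant than in WT and 2.82-fold higher (1.49 on the log2 scale, SE 0.21, adjusted p = 0.00161) in rescued than in mutant. Trim25, the ubiquitin ligase that aids RIG-I, was at 10.69, 10.75 and 10.88 in WT pools 1 to 3, 9.64, 9.88 and 9.88 in mutant pools 1 to 3 and 10.78, 10.91 and 10.83 in rescued pools 1 to 3. Rescued and WT pools overlapped about 1 log2 unit above the mutant pools. Trim25 was 1.96-fold lower (−0.97 on the log2 scale, SE 0.09, adjusted p = 2.39e-05) in mutant than in WT and 2.05-fold higher (1.04 on the log2 scale, SE 0.09, adjusted p = 9.65e-05) in rescued than in mutant. Trim30a, a mouse regulator of inflammatory signalling with close relatives beside it, was at 7.18, 7.50 and 7.10 in WT pools 1 to 3, 6.12, 5.81 and 6.54 in mutant pools 1 to 3 and 8.01, 7.92 and 7.07 in rescued pools 1 to 3. Mutant pools were the lowest, and Trim30a was at least 2.14-fold lower (−1.10 on the log2 scale, SE 0.25, adjusted p = 0.00821) in mutant than in WT and at least 2.85-fold higher (1.51 on the log2 scale, SE 0.25, adjusted p = 0.00419) in rescued than in mutant.

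The remaining genes of that set were Parp14, Parp9 and Usp18. Parp14, an ADP-ribosyltransferase, was at 9.22, 9.41 and 9.24 in WT pools 1 to 3, 9.41, 9.29 and 9.70 in mutant pools 1 to 3 and 10.22, 10.21 and 9.76 in rescued pools 1 to 3. Rescued pools were the highest, and Parp14 was 1.51-fold higher (0.60 on the log2 scale, SE 0.14, adjusted p = 0.0234) in rescued than in mutant and 1.71-fold higher (0.77 on the log2 scale, SE 0.14, adjusted p = 0.00707) in rescued than in WT. Parp9, which lies close to Parp14 on the chromosome, was at 9.71, 9.84 and 9.75 in WT pools 1 to 3, 9.53, 9.48 and 9.65 in mutant pools 1 to 3 and 10.17, 10.21 and 9.77 in rescued pools 1 to 3. It was 1.41-fold higher (0.50 on the log2 scale, SE 0.11, adjusted p = 0.0181) in rescued than in mutant. Usp18, the protease that removes ISG15 and dampens the interferon receptor, was at 8.80, 9.62 and 8.66 in WT pools 1 to 3, 9.16, 9.22 and 10.02 in mutant pools 1 to 3 and 10.53, 10.57 and 8.64 in rescued pools 1 to 3. Rescued pool 3 was the lowest of the 9 while pools 1 and 2 were the highest, and Usp18 passed no test.

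Antigen processing was represented by 3 neighbouring genes. Psmb8, a subunit of the immunoproteasome, was at 9.04, 8.81 and 8.95 in WT pools 1 to 3, 8.74, 8.84 and 9.06 in mutant pools 1 to 3 and 9.42, 9.52 and 9.46 in rescued pools 1 to 3. All rescued pools, pool 3 included, were above all others, and Psmb8 was 1.50-fold higher (0.59 on the log2 scale, SE 0.09, adjusted p = 0.00275) in rescued than in mutant and 1.44-fold higher (0.53 on the log2 scale, SE 0.09, adjusted p = 0.00508) in rescued than in WT. Psmb9, another such subunit, and Tap1, which carries peptides into the endoplasmic reticulum, passed no test. Their rescued minus WT differences were 0.50 (adjusted p = 0.0602) and 0.56 (adjusted p = 0.0580), with every rescued pool above every WT pool.

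**Figure D3:**
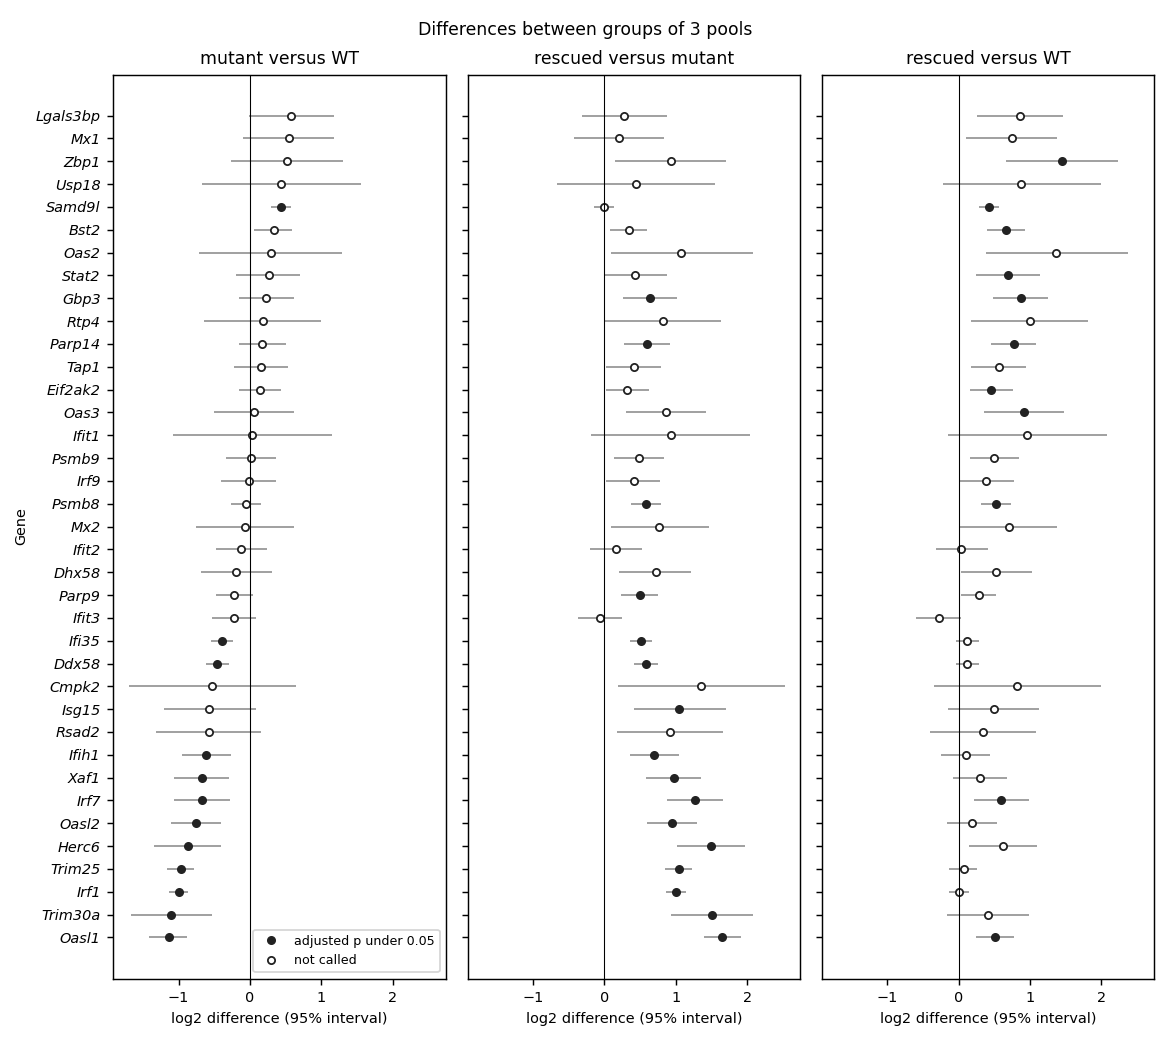
Log2 difference with its 95% interval for each of 37 members in the 3 comparisons; filled symbols mark an adjusted p under 0.05 and open symbols the rest. In mutant minus WT the 11 members called lower run from Ifi35 (−0.39) to Oasl1 (−1.14), with Cmpk2, Isg15 and Rsad2 among them but not called, and in rescued minus mutant 35 members lie right of 0, of which 16 were called.

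Counted without a test, 14 members had every mutant pool below every WT pool and 4 had every one above, against 23.7% and 21.0% of all genes. For rescued and mutant pools, 19 members lay all above and 0 all below, against 15.1% and 17.1%. For rescued and WT pools the counts were 11 and 0, against 13.4% and 18.2%.

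The rescued pools differed from one another. Pools 1 and 2 were at most 0.46 apart for any member, with a median gap of 0.10, whereas pool 3 lay below their mean by a median of 0.61. The gap ranged from −2.29 for Cmpk2 to 0.17 for Ifit3. Pool 3 was at least 0.5 lower for 21 members (56.8%), against 1.96% of all genes, and at least 1 lower for 10 members (27.0%), against 0.338%. It was the lowest rescued pool for 32 members (86.5%, all genes 32.0%) and the highest for 0. Over the members, 34 and 35 were above every WT pool in rescued pools 1 and 2, and 12 were in pool 3. The members within 0.2 of pools 1 and 2 numbered 7, among them Irf1 (0.03), Trim25 (−0.01), Psmb8 (−0.01), Samd9l (−0.03) and Ddx58 (−0.04). Spread among pools of the other groups was smaller, though not without order. WT pool 2 was the highest WT pool for 30 members (81.1%, all genes 28.6%), and mutant pool 3 the highest mutant pool for 29 (78.4%, all genes 34.6%). The median SD over the members was 0.18 in WT, 0.19 in mutant and 0.35 in rescued, and 0.09, 0.09 and 0.10 over all genes.

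**Figure D4:**
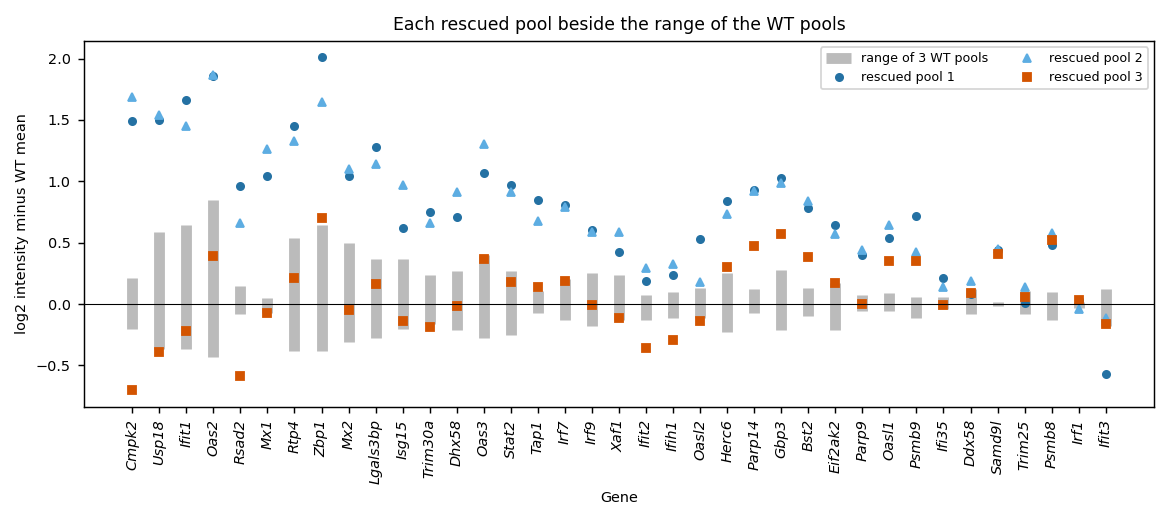
Log2 intensity minus the WT mean for each member in rescued pools 1, 2 and 3, beside the range of the 3 WT pools (grey bars); members are ordered as in the map of all pools. At the left, rescued pool 3 lies far from the mean of pools 1 and 2 (−2.29 for Cmpk2), and the 3 pools lie close together toward the right for Samd9l, Trim25, Psmb8 and Irf1.

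Counts of called members moved with the pools used, and each leave-out is given for that reason. Rescued against mutant called 11 members higher without rescued pool 1, 12 without pool 2 and 32 without pool 3, against 5.45%, 5.61% and 4.38% of all genes. Rescued against WT called 5, 5 and 27, against 4.36%, 3.69% and 6.44% of all genes. It also called 5 without WT pool 1 or WT pool 3, against 4.97% and 4.49% of all genes. At 5, the calls that remained were Gbp3, Bst2, Samd9l, Parp14 and Psmb8, and those lost were Irf7, Stat2, Zbp1, Eif2ak2, Oas3 and Oasl1. Over the leave-outs, the highest adjusted p was 0.164, for Irf7. In rescued against mutant, 11 of 16 calls held in all 9 leave-outs. The other 5 were Isg15, Gbp3, Parp9, Parp14 and Ifih1, with adjusted p up to 0.112, 0.113, 0.0638, 0.0794 and 0.0565. In mutant against WT, 10 of 12 held in all 9; Irf7 was lost without mutant pool 2 or WT pool 2 and Xaf1 without WT pool 2, at adjusted p up to 0.0562 and 0.0510. Without rescued pool 3, Cmpk2 was 4.35-fold higher in rescued than in mutant (2.12 on the log2 scale, SE 0.19, adjusted p = 0.000340) and 3.00-fold higher than in WT (adjusted p = 0.00104). Those values describe 2 pools picked after the difference of pool 3 was known.

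Some other readouts were also lowest in pool 3 among the rescued pools, and others were not. The mean log2 intensity of 11 leukocyte markers was 7.29, 7.38 and 7.27 in WT pools 1 to 3, 8.52, 8.08 and 8.27 in mutant and 8.22, 8.26 and 7.86 in rescued pools. Of these markers, 10 were higher and 1, Itgam, lower in mutant than in WT, against 15.1% and 16.5% of all genes. In rescued against WT 8 were higher, against 6.28% of all genes. Ptprc, the pan-leukocyte surface protein CD45, ranged from 6.03 to 6.41 in WT, 8.18 to 9.08 in mutant and 7.21 to 8.19 in rescued pools. Rescued pool 3 thus had the lowest leukocyte mean of the rescued pools, and the lowest Srf. Markers of plasmacytoid dendritic cells, strong producers of type I interferon, averaged 6.74 to 6.87 in WT, 6.84 to 7.01 in mutant and 7.18, 7.06 and 6.82 in rescued pools 1 to 3. Of these 6 markers, 0 were called in mutant or rescued against WT by limma, against 31.6% and 13.7% of all genes. An unadjusted limma p under 0.05 was reached by 1 and 0 of them, against 40.1% and 26.8% of all genes. In rescued against mutant 1 was higher, against 6.46% of all genes. This was Ccr9, at least 1.36-fold higher (0.45 on the log2 scale, SE 0.11, adjusted p = 0.0302). T and NK cell markers averaged 5.58 to 5.62 in WT, 5.94 to 6.17 in mutant and 6.09, 6.11 and 5.82 in rescued pools 1 to 3. Rescued pool 3 had the lowest rescued mean for both of these lists. Among the plasmacytoid markers the single genes did not move together. In rescued pools 1 to 3, the dim Klk1 (6.31, 5.43 and 4.82) and Spib (5.86, 5.92 and 5.38) were lowest in pool 3. Il3ra was highest in pool 3 (7.57, 7.64 and 7.76), and Siglech and Ccr9 lay between pools 1 and 2. Tcf4 differed little (9.81, 9.88 and 9.80). Of 7 T and NK markers, 2 were higher in mutant than in WT and 1 in rescued than in WT, against 15.1% and 6.28% of all genes. Cd3g, a chain of the T cell receptor complex, was at least 4.97-fold higher (2.31 on the log2 scale, SE 0.32, adjusted p = 0.000432) in mutant than in WT and at least 3.23-fold higher (1.69 on the log2 scale, SE 0.32, adjusted p = 0.00820) in rescued than in WT, and Cd3e, another chain, was at least 2.00-fold higher (1.00 on the log2 scale, SE 0.21, adjusted p = 0.00543) in mutant than in WT. Endothelial markers averaged 6.53 to 6.69 in WT, 8.10 to 8.71 in mutant and 7.71 to 8.01 in rescued pools, and lens markers 9.0 to 9.38, 7.99 to 8.81 and 7.82 to 8.13. In rescued pools 1 to 3 the endothelial mean was 7.71, 8.01 and 7.91, and the lens mean 8.13, 7.82 and 7.86. The mean of 5 epithelial markers was 12.96, 12.99 and 12.99, and that of 6 stromal markers 11.84, 11.71 and 11.75. By these means, rescued pool 3 was not the lowest rescued pool for the endothelial, lens, epithelial or stromal list. The mean of 3 Y-linked genes, which follows the share of male mice, was 5.34, 9.77 and 5.15 in WT, 7.77, 9.77 and 8.41 in mutant and 7.16, 9.11 and 8.89 in rescued pools. WT pool 2 was the WT pool with the high Y-linked level and also the one highest for 30 members. Mutant pool 2 had the highest Y-linked level of its group, while mutant pool 3 was highest for 29 members and pool 2 lowest for 22. Rescued pool 1 had the lowest Y-linked level of its group and was highest for 18 members. Rescued pool 3, at a Y-linked mean of 8.89, was the lowest for 32. With the Y-linked mean as a covariate, 5 members were higher in rescued than in WT, against 4.75% of all genes. The part of leukocytes, plasmacytoid and T cells, sex and Srf level in the differences among pools was not tested.

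**Figure D5:**
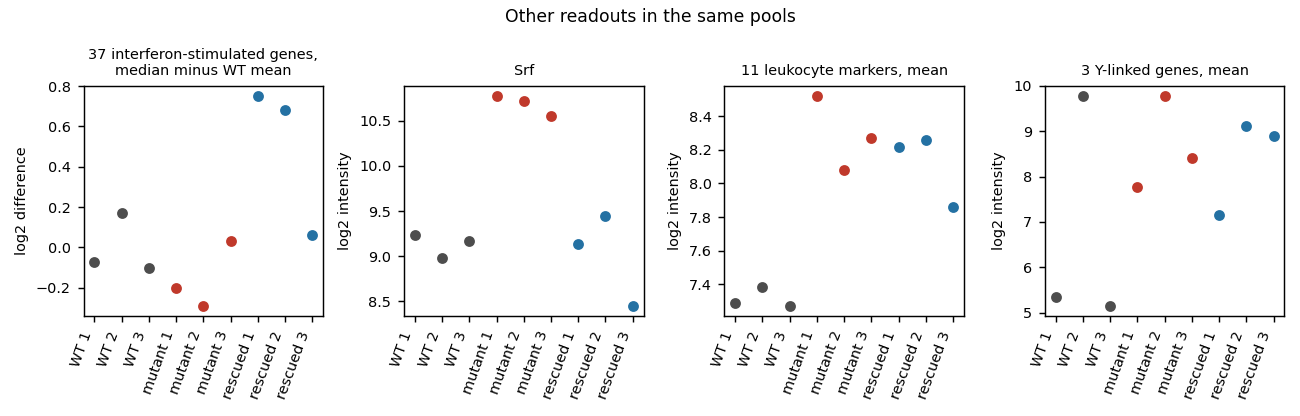
Per pool, the median over 37 members of the log2 intensity minus the WT mean, and the log2 intensity of Srf, the mean of 11 leukocyte markers and the mean of 3 Y-linked genes. Rescued pool 3 has the lowest rescued value in the first 3 panels (0.06, 8.45 and 7.86).

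Genes upstream of the response were read from further lists. Of 17 interferon ligand genes, 1 was higher (Ifna9, 0.62) and 1 lower (Ifna4, −0.47) in mutant than in WT, against 15.1% and 16.5% of all genes. In rescued against mutant or WT, 0 were called by limma, against 13.3% and 13.7% of all genes called either way. An unadjusted limma p under 0.05 was reached by 2 and 1 of them, against 27.0% and 26.8% of all genes. Ifnb1, the gene for interferon beta, ranged from 4.20 to 4.71 and Ifng, for interferon gamma, from 5.62 to 6.20, both below the median of all rows. Ifna9 also lay below it, with means of 4.63 in WT and 5.24 in mutant pools. Some ligand genes were brighter, among them Ifna1 (9.31 to 9.69), Ifnl2 (8.99 to 9.22) and Ifna4 (7.90 to 8.78). The probe sequences were not used here, so a bright row alone does not establish expression of the named gene. Of 18 receptor and signalling genes, 10 were higher and 5 lower in mutant than in WT (all genes 15.1% and 16.5%). In rescued against mutant 3 were higher and 4 lower (6.46% and 6.88%), and in rescued against WT 5 and 0 (6.28% and 7.43%). Socs3, a feedback inhibitor of cytokine receptors, was 2.71-fold higher (1.44 on the log2 scale, SE 0.15, adjusted p = 7.47e-05) in mutant than in WT and 1.70-fold lower (−0.77 on the log2 scale, SE 0.15, adjusted p = 0.00941) in rescued than in mutant. Ifngr1, the ligand-binding chain of the interferon gamma receptor, was 2.18-fold higher (1.12 on the log2 scale, SE 0.07, adjusted p = 3.67e-06) in mutant than in WT and 1.30-fold lower (−0.38 on the log2 scale, SE 0.07, adjusted p = 0.00749) in rescued than in mutant. Ifnar2, of the type I receptor, was 1.69-fold higher (0.75 on the log2 scale, SE 0.08, adjusted p = 6.34e-05) in mutant, and Irf8, a factor of myeloid cells, at least 1.79-fold higher (0.84 on the log2 scale, SE 0.23, adjusted p = 0.0175). The 5 lower in mutant, all outside the 4 largest, were Ifnlr1 (−0.64), Pias1 (−0.56), Ptpn6 (−0.34), Tyk2 (−0.27) and Jak1 (−0.17). Ifnlr1 and Pias1 were also called higher in rescued than in mutant (0.57 and 0.38).

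Of 17 genes of nucleic acid sensing, 11 were higher and 3 lower in mutant than in WT (all genes 15.1% and 16.5%). In rescued against mutant 2 were higher and 1 lower (6.46% and 6.88%), and in rescued against WT 9 and 0 (6.28% and 7.43%). Sting1, the adaptor of the cytosolic DNA pathway, was at 7.58, 7.87 and 7.58 in WT pools 1 to 3, 9.67, 9.54 and 9.47 in mutant pools 1 to 3 and 8.94, 8.93 and 8.19 in rescued pools 1 to 3. The groups did not overlap, with WT lowest and mutant highest. Sting1 was 3.69-fold higher (1.88 on the log2 scale, SE 0.19, adjusted p = 4.76e-05) in mutant than in WT, 1.83-fold lower (−0.88 on the log2 scale, SE 0.19, adjusted p = 0.0128) in rescued than in mutant and 2.01-fold higher (1.01 on the log2 scale, SE 0.19, adjusted p = 0.00670) in rescued than in WT. Samhd1, which degrades nucleotides, was 2.89-fold higher (1.53 on the log2 scale, SE 0.15, adjusted p = 5.58e-05) in mutant than in WT, Tlr8, an endosomal receptor, at least 2.48-fold higher (1.31 on the log2 scale, SE 0.25, adjusted p = 0.00262), and Nlrc5, an activator of class I genes, at least 2.39-fold higher (1.26 on the log2 scale, SE 0.27, adjusted p = 0.00615). Mavs, the adaptor that RIG-I and MDA5 act through, was outside the 4 largest and was picked after its values were seen. It was 1.57-fold lower (−0.65 on the log2 scale, SE 0.07, adjusted p = 0.000123) in mutant than in WT and 1.67-fold higher (0.74 on the log2 scale, SE 0.07, adjusted p = 0.000283) in rescued than in mutant.

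Of 14 genes of class I antigen presentation, 4 were higher and 1 lower in mutant than in WT (all genes 15.1% and 16.5%). In rescued against mutant 3 were higher and 0 lower (6.46% and 6.88%), and in rescued against WT 6 and 0 (6.28% and 7.43%). B2m, the shared light chain, differed by 0.72 and 0.70 from WT in mutant and rescued corneas on the log2 scale, and H2-K1, a heavy chain, by 0.64 and 0.63. These means hide a low rescued pool 3. In rescued pools 1 to 3, B2m was at 13.56, 13.32 and 12.86 and H2-K1 at 12.34, 11.91 and 11.60. Mutant pools ran from 13.08 to 13.43 for B2m and from 11.72 to 12.07 for H2-K1.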

How the data were processed

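Total RNA from pooled corneas was labelled with biotin for Affymetrix WT arrays of 1 colour, per the labels. Values were deposited as log2 intensities, already normalised by the authors in a way not given in the sources used here. Their range, 2.14 to 14.32, is the basis for taking base 2. Of 41345 rows, 23521 carried exactly 1 symbol in the platform annotation, 1814 several and 16010 were not listed. The brightest row per gene left 22180 genes, with no filter on intensity. All 9 arrays were fitted together in limma 3.58.1 (R 4.3.3; lmFit, contrasts.fit, eBayes; two-sided, Benjamini-Hochberg over all genes), and a gene was called at an adjusted p under 0.05. SEs are limma's moderated SEs. Folds are ratios of intensities and are lower bounds where the dimmer group lay under 6.77. Array medians were 6.75 to 6.78, and the number of arrays limits the precision.

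Members, lists and tests were chosen with earlier results of these data known. Full values are given for members called with a log2 difference of at least 0.5 and the 3 with the largest range over rescued pools; Oas2, Dhx58, Ifit3, Samd9l, Ifi35 and Eif2ak2 were given more values than others after they were seen. Up to 4 called genes per list were named by size. List symbols were matched through RefSeq synonyms. On simulated data for mutant against WT (22180 genes, 50 changed per size), 58%, 88%, 100% and 100% were recovered at log2 differences of 0.5, 1, 2 and 3, with 9 false calls. Changed genes were drawn from all genes and were far fewer than the 31.6% called in the data. The members spread more widely (median SD 0.18, 0.19 and 0.35 in WT, mutant and rescued, all genes 0.09, 0.09 and 0.10). These rates therefore do not describe the members. Promoters are RefSeq's, GRCm38.p6. Python 3.11.15 with matplotlib 3.10.9 drew the figures. The alternatives were other normalisations, an intensity filter, mean rows, array weights, variance priors, the arrays of a comparison alone, a Y-linked covariate, the replicate number as a block, a stricter threshold and leaving out each array.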

Additional observations from a re-analysis of the deposited data

How the results depend on the processing

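Each comparison's counts and each called member were recomputed under 19 alternatives, except that Gbp3 and Isg15 had 18 because the intensity filter, which left 33 members, removed them. No called difference of a member changed its direction. Of the single-member results, 641 stayed on the same side of the threshold and 97, from 15 results, lost their call. Members higher in mutant than in WT numbered 1 at first, against 15.1% of all genes. They numbered 2 with quantile normalisation (16.6% of all genes), with centring on the array median (16.2%) and with a trend and robust variance prior (16.2%). They also numbered 2 with the replicate block (14.6%) and without genes below the median intensity (25% of the genes kept). They numbered 4 with the 6 arrays of the comparison alone (14.5%), and 1 to 4 when 1 array was left out (12.5% to 15%). Members lower in mutant than in WT numbered 11 (16.5% of all genes), and 7 at an adjusted p under 0.01 (11.2%). Members higher in rescued than in mutant numbered 16 (6.46% of all genes), and 11 to 32 when 1 array was left out (4.38% to 6.17%). The 32 were reached without rescued pool 3 (4.38%). Members higher in rescued than in WT numbered 11 (6.28% of all genes). They numbered 5 with the Y-linked covariate (4.75%), 5 at an adjusted p under 0.01 (2.93%) and 5 to 27 when 1 array was left out (3.69% to 6.44%). The cause of these shifts was not tested. Replicate numbers do not pair the arrays (correlations of same-numbered deviations from −0.02 to 0.06). With the replicate block, mutant against WT gave 2 higher and 11 lower members, against 14.6% and 15.6% of all genes. Rescued against mutant and against WT gave 13 and 11 higher, against 5.41% and 5.53% of all genes. With 3 pools a group, differences of the widely spread members could not always be resolved, large ones included. In limma, Cmpk2 was 1.36 higher on the log2 scale in rescued than in mutant (adjusted p = 0.126). Oas2 was 1.37 higher in rescued than in WT (adjusted p = 0.073), and neither was called.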

Other observations

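A further 43 interferon-induced genes outside the list were also read. Their log2 differences of mutant minus WT ran from −2.08 to 2.65, against −1.14 to 0.58 for the members. Of the 43 genes, 10 were higher and 10 lower in mutant than in WT in limma at an adjusted p under 0.05, against 15.1% and 16.5% of all genes. In rescued against mutant 16 were higher and 0 lower, against 6.46% and 6.88%. In rescued against WT 10 were higher and 2, Oas1c and Ifi27, lower, against 6.28% and 7.43%. Cd274, the gene for the checkpoint ligand PD-L1, was at 9.80, 9.78 and 9.78 in WT pools 1 to 3, 7.91, 7.18 and 8.02 in mutant pools 1 to 3 and 10.33, 10.19 and 10.10 in rescued pools 1 to 3. The mutant pools lay far below the others, and Cd274 was 4.24-fold lower (−2.08 on the log2 scale, SE 0.18, adjusted p = 2.42e-05) in mutant than in WT and 5.67-fold higher (2.50 on the log2 scale, SE 0.18, adjusted p = 4.72e-05) in rescued than in mutant. Ddx60, a helicase that aids RIG-I, was 3.57-fold lower (−1.84 on the log2 scale, SE 0.20, adjusted p = 9.65e-05) in mutant than in WT and 2.94-fold higher (1.56 on the log2 scale, SE 0.20, adjusted p = 0.00102) in rescued than in mutant.

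Others of these genes were higher in mutant than in WT. Ifi205, of the family of DNA-binding interferon-inducible proteins, was at 6.31, 5.92 and 5.70 in WT pools 1 to 3, 9.15, 7.79 and 8.94 in mutant pools 1 to 3 and 9.10, 8.91 and 7.25 in rescued pools 1 to 3. It was at least 6.28-fold higher (2.65 on the log2 scale, SE 0.49, adjusted p = 0.00223) in mutant than in WT and at least 5.43-fold higher (2.44 on the log2 scale, SE 0.49, adjusted p = 0.00993) in rescued than in WT. Ifitm3, which blocks virus entry at the endosome, was 3.10-fold higher (1.63 on the log2 scale, SE 0.22, adjusted p = 0.000302) in mutant than in WT and 2.25-fold higher (1.17 on the log2 scale, SE 0.22, adjusted p = 0.00686) in rescued than in WT. Its rescued pools 1 to 3 were at 12.33, 12.22 and 11.36. In limma, rescued minus mutant was not called for Ifi205 (−0.21, adjusted p = 0.841) or Ifitm3 (−0.46, adjusted p = 0.204). Rescued pool 3 was the lowest rescued pool for 38 of the 43 genes (88.4%, all genes 32.0%).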
